A study of Mus musculus with 9 samples.

Results

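The 7 genes Ncam1, Ncam2, Nrcam, Nfasc, Chl1, L1cam and Cntn1 encode cell adhesion molecules of the immunoglobulin family that are best known from the nervous system. They were 7 of the 19935 genes measured, by Affymetrix arrays, in RNA from adult mouse hearts, from the right ventricle and the septum between the ventricles. In 4 hearts Ezh2 was targeted by Cre (Ezh2-deficient, Ezh2f/f;Mef2cAHF::Cre), and they were set against 5 wild-type hearts, labelled Ezh2f/f and without Cre. All mice were on a mixed background of C57BL/6, and a single array was run per heart. Floxed Ezh2 alleles were thus common to both groups by the genotype field, although wild-type titles give f/wt in place of f/f; this was not reconciled. Cre was present in the Ezh2-deficient hearts alone, so loss of Ezh2 and presence of Cre cannot be told apart. The Mef2c anterior heart field enhancer drives Cre in embryonic progenitors of the right ventricle, septum and outflow tract, and cells of other origin in the tissue keep the floxed alleles. The probe set of each gene was chosen by its mean over all 9 arrays, and the genes were proposed as a family with results of this comparison in view. Their differences are therefore given as a description. They lie on chromosomes 9 (Ncam1), 16 (Ncam2), 12 (Nrcam), 1 (Nfasc), 6 (Chl1), X (L1cam) and 15 (Cntn1).

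The values are RMA values on the log2 scale, so that a difference of 1 is a doubling, and a probe set passed at an adjusted p under 0.05. Array medians ran from 7.19 to 7.25, and Pearson r between arrays ran from 0.990 to 0.997. On the first principal component of all probe sets, wild-type arrays 4 and 5 stood off at 26.1 and 24.1, the remaining arrays lying between -13.9 and 3.84. On the second, Ezh2-deficient array 3 lay apart (-30.2, against -8.64 to 14.4 elsewhere). Ezh2, the targeted gene, ran from 8.74 to 8.98 in Ezh2-deficient and from 8.60 to 8.89 in wild-type hearts (difference 0.15, SE 0.07, limma adjusted p = 0.485). It was not lower in the Ezh2-deficient hearts. Where its probes lie relative to the deleted part is not given in the values used, so Ezh2 does not check the labels, which are taken as they stand.

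Molecules of this family carry immunoglobulin and fibronectin type III domains outside the cell, bind one another or matrix ligands, and guide the outgrowth and bundling of axons. NCAM, the product of Ncam1, carries polysialic acid during development and is also found on embryonic muscle, from which it recedes as fibres mature and to which it returns after denervation of skeletal muscle. Polycomb repressive complex 2, whose catalytic subunit is Ezh2, methylates histone H3 and acts in vertebrates largely at CpG-rich promoters of silent developmental genes.

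The CpG content of the promoters is given first, as a property that the choice of genes did not use. RefSeq promoters on GRCm38.p6, running from 250 bases before to 50 bases after a start, were matched for 6 of the 7 genes, with 10 promoters among them; Ncam1 was not matched. The number of CG dinucleotides, which reads the same on both strands, differed widely among them. Ncam2 had 41 in its 300 bases and Nrcam had 37, and such a count or a higher one was found in 3.46% and 5.58% of the 32851 promoters of that length. The 2 promoters of L1cam had 25 and 22, and Chl1 had 13, a count reached by 37.9% of all promoters. The 3 promoters of Cntn1 had 9, 5 and 4, and the 2 of Nfasc had 7 and 3, around the median of 7. The promoters of Chl1 and Ncam2 are shown because, among the genes with a promoter, they had the largest and the smallest difference between the groups in the reported fit; for Ncam2, a probe set with low signal, the order changed with the setting. They lie at chr6:103510626-103510925 (plus strand) and chr16:81200447-81200746 (plus strand), and capitals mark CG dinucleotides.
Chl1: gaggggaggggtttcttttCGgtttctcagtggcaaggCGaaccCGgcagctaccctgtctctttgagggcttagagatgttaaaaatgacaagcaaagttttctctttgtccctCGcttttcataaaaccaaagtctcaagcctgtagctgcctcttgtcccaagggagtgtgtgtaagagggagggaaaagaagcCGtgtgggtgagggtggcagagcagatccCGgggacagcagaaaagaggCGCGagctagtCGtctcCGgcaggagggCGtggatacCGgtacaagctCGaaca
Ncam2: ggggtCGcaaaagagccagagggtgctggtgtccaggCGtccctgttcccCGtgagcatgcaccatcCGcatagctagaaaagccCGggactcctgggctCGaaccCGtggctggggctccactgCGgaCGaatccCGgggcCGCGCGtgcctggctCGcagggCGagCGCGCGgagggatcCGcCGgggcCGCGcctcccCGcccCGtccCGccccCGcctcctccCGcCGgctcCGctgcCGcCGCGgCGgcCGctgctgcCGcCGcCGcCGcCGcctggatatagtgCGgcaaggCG

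Ncam1 had the largest difference of the family. Its probe set (10593293) read 8.37, 8.41, 8.33 and 8.34 on the log2 scale in the Ezh2-deficient hearts, against 8.03, 7.81, 7.87, 7.61 and 7.63 in the wild-type hearts. Every Ezh2-deficient heart was above every wild-type heart, and the Ezh2-deficient hearts lay close together while the wild-type hearts were spread. The group means were 8.36 ± 0.032 (SD, n = 4) in Ezh2-deficient and 7.79 ± 0.17 (SD, n = 5) in wild-type hearts. The difference was 0.57 (SE 0.08), or 1.49-fold with a 95% interval from 1.31 to 1.69. In the limma fit over all 28815 probe sets it ranked number 20 by p and lay just outside the threshold (adjusted p = 0.0573). The deposited values hold a single probe set for the gene, so the transmembrane and lipid-anchored isoforms of NCAM were not separated. In whole tissue a larger share of cells that carry a transcript and more transcript per cell cannot be told apart.

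**Figure D1:**
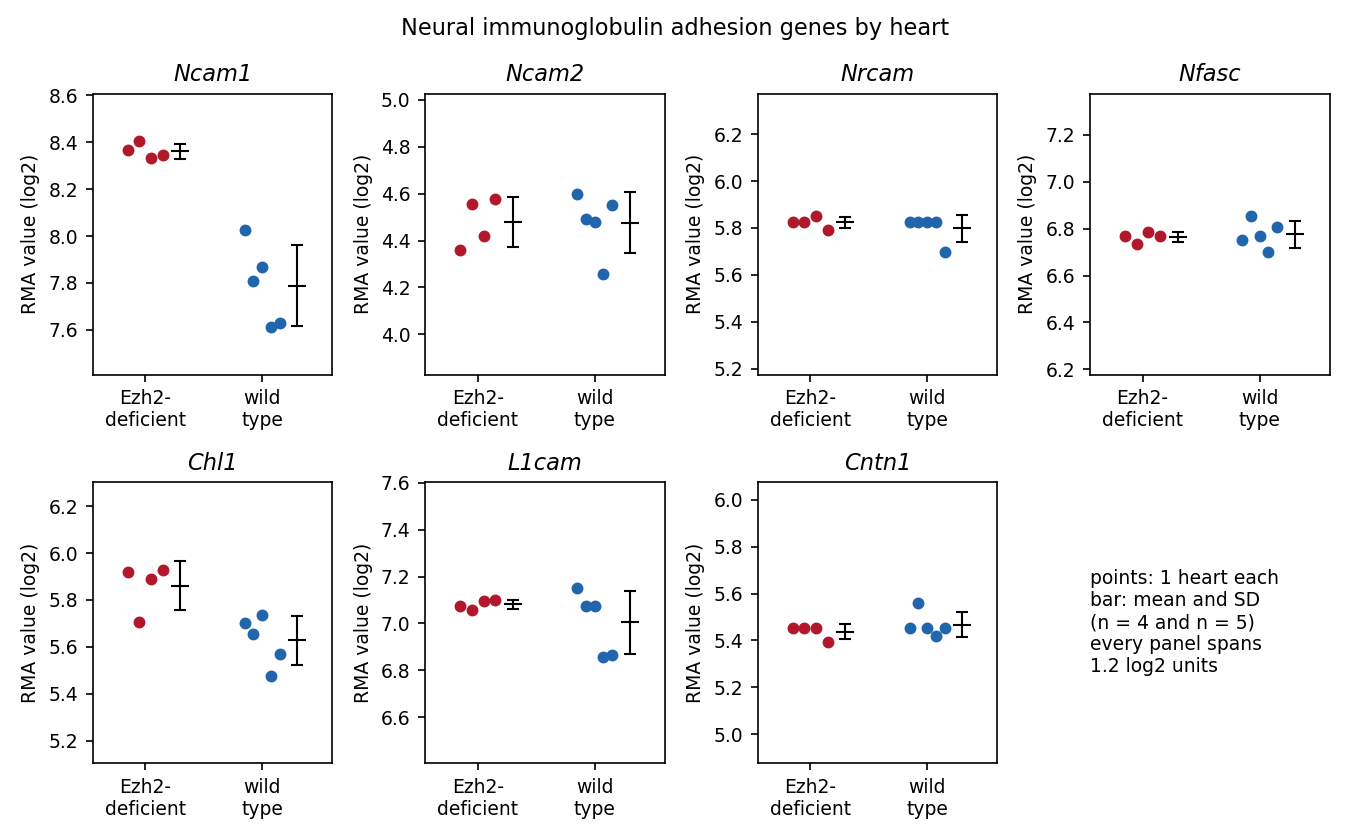
RMA values (log2) of the 7 genes in each heart, Ezh2-deficient left of wild type, with the mean and SD beside the points. All panels span the same range; in the Ncam1 panel alone the groups do not overlap, and Nrcam and Cntn1 sit at nearly 1 value.

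The Ncam1 difference was also read without the arrays that lay apart and by title letter. The Ncam1 value was lowest at wild-type arrays 4 and 5, which lay apart on the first principal component. Without them the difference was 0.46 (limma adjusted p = 0.218). Without Ezh2-deficient array 3, which lay apart on the second, it was 0.58 (limma adjusted p = 0.11). Each title also has an e or an x of unstated meaning, which was treated as a possible batch. Within letter e Ncam1 averaged 8.36 in Ezh2-deficient (n = 2) and 7.92 in wild-type hearts (n = 2), a difference of 0.44 (limma adjusted p = 0.651). Within letter x it averaged 8.37 in Ezh2-deficient (n = 2) and 7.70 in wild-type hearts (n = 3), a difference of 0.67 (limma adjusted p = 0.258). These 2 differences did not differ past the threshold (interaction 0.23, limma adjusted p = 0.742). Within either letter, with fewer arrays, 0 of all probe sets passed.

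Chl1, the close homologue of L1, which promotes neurite outgrowth, had the second largest difference. Probe set 10540298 read 5.92, 5.71, 5.89 and 5.93 in Ezh2-deficient hearts, against 5.70, 5.66, 5.74, 5.48 and 5.57 in wild-type hearts. In 3 of the 4 Ezh2-deficient hearts Chl1 was above every wild-type heart, and Ezh2-deficient array 2 fell among the higher wild-type values. The difference of 0.23 (SE 0.07, 95% interval 0.08 to 0.39) did not pass (limma adjusted p = 0.271). This was 1.18-fold. The difference was 0.25 among e hearts and 0.20 among x hearts, and 0.16 when wild-type arrays 4 and 5 were left out.

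L1cam, the founder of the L1 group and a gene of the X chromosome, read 7.08, 7.06, 7.10 and 7.10 in Ezh2-deficient hearts (probe set 10605113). In wild-type hearts it read 7.15, 7.08, 7.08, 6.86 and 6.86. The Ezh2-deficient values fell inside the wild-type range, in which arrays 4 and 5 were the low ones. The difference was 0.08 (SE 0.07, 95% interval -0.07 to 0.23, limma adjusted p = 0.714), and without those 2 wild-type arrays it was -0.02. Levels of Xist and of 3 Y-linked genes placed 2 of 4 Ezh2-deficient and 1 of 5 wild-type hearts as female; with their Y-linked level as a covariate the differences were 0.10 for L1cam and 0.61 for Ncam1 (adjusted p = 0.105).

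Nrcam and Nfasc, the other L1-type molecules, anchor to ankyrin and assemble the nodes of Ranvier and the axon initial segment. For Nrcam (probe set 10395553) the Ezh2-deficient hearts read 5.83, 5.83, 5.85 and 5.79, against 5.83 in 4 wild-type hearts and 5.70 in the other. Nfasc (probe set 10357736) ran from 6.73 to 6.78 in Ezh2-deficient and from 6.70 to 6.85 in wild-type hearts. The groups overlapped for both genes. The differences were 0.02 for Nrcam (95% interval -0.07 to 0.12) and -0.01 for Nfasc (-0.11 to 0.08). Nrcam, like Cntn1 below, had repeated values at a low signal, and the intervals of these genes set no limit on a change of their transcripts.

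Cntn1 encodes contactin, a lipid-anchored partner of neurofascin at the junctions between axon and glia. Its probe set (10426397) ran from 5.39 to 5.45 in Ezh2-deficient and from 5.42 to 5.56 in wild-type hearts, a difference of -0.03 (95% interval -0.12 to 0.06). Ncam2, the paralogue of Ncam1 known from olfactory axons, ran from 4.36 to 4.58 in Ezh2-deficient and from 4.26 to 4.60 in wild-type hearts (probe set 10436636). Its difference was 0.003 (95% interval -0.17 to 0.17). Repeated values touched 4 of the 7 genes: 6 of the 9 arrays shared 1 value at Nrcam, 5 at Cntn1 and 3 each at Nfasc and L1cam, while Ncam1, Ncam2 and Chl1 had no repeat.

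**Figure D2:**
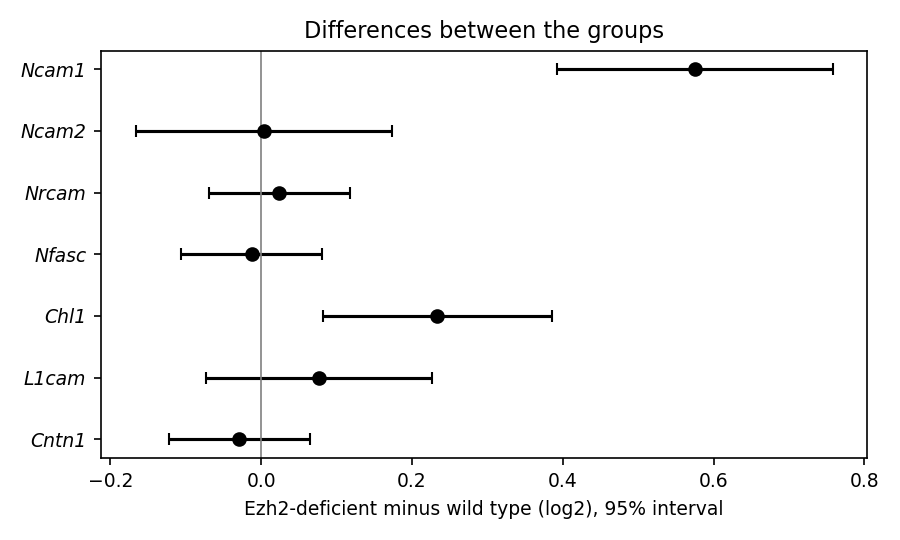
Difference between Ezh2-deficient and wild-type hearts (log2) for each gene, with the 95% interval from limma. The intervals of Ncam1 and Chl1 lie above 0, and those of the other 5 genes include it.

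Across the family 0 of 7 genes passed in limma at an adjusted p of 0.05, against 0.0347% of all probe sets. Ncam1 and Chl1 had an unadjusted p under 0.05, 2 of 7 against 10.7% of all probe sets, and the groups did not overlap at 1 of 7 against 3.71%. Since the genes were proposed with this comparison in view, nothing is read from these shares. The mean was higher in Ezh2-deficient hearts for 5 of the 7, and the median difference was 0.02, beside -0.006 over all probe sets. No detection calls come with the values, and probe sets of different genes cannot be ranked against each other. As a rough scale, the 1027 olfactory receptor genes, which the heart is mostly taken not to use, had means whose 95th percentile was 6.62. Ncam1 (8.04 over all arrays), L1cam (7.04) and Nfasc (6.77) lay above it, and Nrcam (5.81), Chl1 (5.73), Cntn1 (5.45) and Ncam2 (4.48) lay below it. A difference at the last 4 genes is thus a difference between low signals.

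The wider set of immunoglobulin adhesion genes contained no call. Of 33 listed genes, among them the other contactins, the SynCAM, nectin and IgLON groups and Dscam, 31 were measured and 0 passed in limma, with 1 at an unadjusted p under 0.05, against 10.7% of all probe sets. Their median difference was 0.01, with the mean in Ezh2-deficient hearts above that in wild-type hearts for 17 genes and below it for 14. The smallest p was that of Kirrel, which encodes the adhesion protein Neph1 (difference 0.18, SE 0.06, adjusted p = 0.332). The coxsackievirus and adenovirus receptor gene Cxadr, whose product sits at the intercalated disc, differed by -0.19 (SE 0.09) and Nectin1, a gene of adherens junctions, by 0.14 (SE 0.07).

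Genes whose products bind, modify or cleave these molecules were read next. Of 36 listed, 35 were measured and 0 passed in limma; 6 higher and 2 lower genes had an unadjusted p under 0.05, against 10.7% of all probe sets in either direction. Without wild-type arrays 4 and 5 these counts were 3 higher and 4 lower. The median difference was 0.01. The polysialyltransferases, which add polysialic acid to NCAM, did not differ past the threshold. St8sia2 averaged 6.38 ± 0.07 in Ezh2-deficient and 6.41 ± 0.16 in wild-type hearts, and St8sia4 averaged 8.48 ± 0.28 in Ezh2-deficient and 8.54 ± 0.28 in wild-type hearts (SD, n = 4 and 5). Vcan, the matrix proteoglycan versican, averaged 9.65 ± 0.36 in Ezh2-deficient and 8.77 ± 0.35 in wild-type hearts, a difference of 0.88 (SE 0.20, adjusted p = 0.177). Fgfr1, a growth factor receptor that NCAM binds, differed by 0.27 (SE 0.08, adjusted p = 0.291), and Msn, the cytoskeletal linker moesin, by 0.34 (SE 0.10, adjusted p = 0.293).

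**Figure D3:**
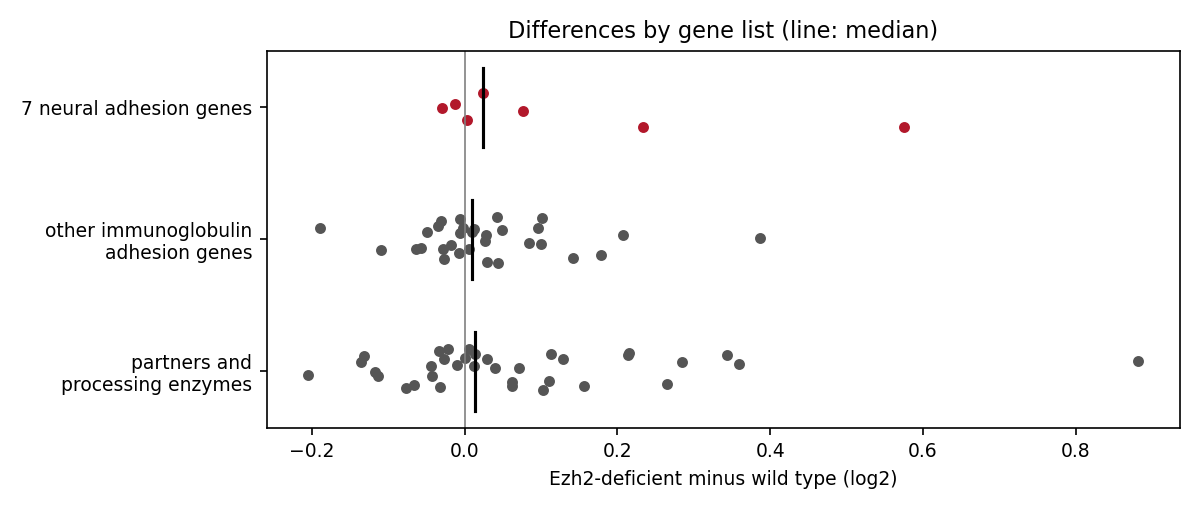
Difference between Ezh2-deficient and wild-type hearts (log2) for each measured gene of the 7-gene family, of the other immunoglobulin adhesion genes (31) and of partners and processing enzymes (35), with a line at each median. The medians lie close to 0, and Ncam1 and Vcan are the rightmost points of their lists.

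Since NCAM and its relatives mark nerve and glia, markers of those cells were set beside the Ncam1 values. For each list here, the share of all probe sets at an unadjusted p under 0.05 was 10.7%. Among 11 neuron markers 0 passed in limma and 1 had an unadjusted p under 0.05, and the median difference was -0.0035. Their mean level ran from 6.43 to 6.48 in Ezh2-deficient and from 6.35 to 6.47 in wild-type hearts. The neuron marker under 0.05 was Uchl1, a ubiquitin hydrolase abundant in neurons. Uchl1 averaged 8.50 ± 0.22 in Ezh2-deficient and 7.99 ± 0.12 in wild-type hearts (difference 0.50, SE 0.10, limma adjusted p = 0.129), while Elavl4 differed by -0.14. Among 10 Schwann cell markers 0 passed, 1 had an unadjusted p under 0.05, and the mean level ran from 7.59 to 7.70 in Ezh2-deficient and from 7.50 to 7.59 in wild-type hearts. The myelin gene Pmp22, which fibroblasts also use, differed by 0.36 (SE 0.12) and S100b by 0.18 (SE 0.10). The 9 conduction system markers had a median difference of -0.007 (Hcn4 -0.22, Irx3 -0.14; median 0.03 without Ezh2-deficient array 3 and -0.06 without wild-type arrays 4 and 5), with 0 past the threshold and 0 at an unadjusted p under 0.05. Of 13 genes listed for the neuromuscular junction and immature muscle 0 passed, and the median was 0.02. An unadjusted p under 0.05 was found for 1 higher (Chrnb1, 0.21) and 1 lower gene (Gadd45a, -0.505). Gadd45a is a general growth arrest and DNA damage gene, not a specific marker of either.

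Markers of fibroblasts and endothelium had higher means in Ezh2-deficient hearts, as Ncam1 did. This held for all 10 fibroblast markers (median difference 0.55), 7 at an unadjusted p under 0.05 (against 10.7% of all probe sets) and 0 past the threshold, with Mfap5 (0.80) and Pcolce (0.52) at the smallest p. Their mean level ran from 10.84 to 11.13 in Ezh2-deficient and from 10.10 to 10.76 in wild-type hearts, and the difference of the mean levels was 0.28 among e hearts and 0.74 among x hearts. By gene the fibroblast differences were uneven, from 0.12 for Dcn and 0.15 for Pdgfra to 0.84 for the collagen gene Col1a1. Without Ezh2-deficient array 3 the fibroblast counts were 10 higher and 5 at an unadjusted p under 0.05, and without wild-type arrays 4 and 5 they were 10 and 7. All 10 endothelial markers had a higher mean as well (median 0.22; Vwf 0.75, Eng 0.43), with 3 at an unadjusted p under 0.05 (against the same 10.7%), 0 past the threshold, and a mean level from 10.50 to 10.60 in Ezh2-deficient and from 10.01 to 10.44 in wild-type hearts. Without wild-type arrays 4 and 5 the endothelial median was 0.06 and 8 of the 10 means were higher.

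The 8 cardiomyocyte markers all had a lower mean (median -0.08; Tnni3 -0.17, Tnnt2 -0.09), and their mean level ran from 13.33 to 13.58 in Ezh2-deficient and from 13.53 to 13.64 in wild-type hearts. These markers, which define heart muscle, were thus present at high signal in every heart. Ezh2-deficient array 3 had the lowest cardiomyocyte level, and without it the median was -0.03 and 6 of 8 means were lower. Without wild-type arrays 4 and 5 the cardiomyocyte median was -0.12 and 7 of 8 means were lower. The 8 smooth muscle and pericyte markers had a median difference of 0.09 (Abcc9 -0.18, Pdgfrb 0.25), which was 0.22 without Ezh2-deficient array 3 and 0.06 without wild-type arrays 4 and 5. Pdgfrb differed by 0.05 without these wild-type arrays. The 8 macrophage and lymphocyte markers had a median difference of 0.19 (Cd163 0.28, Adgre1 0.19). Their mean level differed by -0.04 among e hearts and by 0.43 among x hearts; over all hearts it differed by 0.21. The level was highest in Ezh2-deficient array 3 (8.06), and with that array omitted it differed by 0.12. The 3 measured erythrocyte markers had a median difference of 0.37 (Alas2 0.82, Slc4a1 0.37), which rested on that same array. Their mean level was 8.83 there, against 7.47 to 7.56 in the other Ezh2-deficient and 6.95 to 7.69 in wild-type hearts. Without it the median was 0.07, with Alas2 at 0.23 and Slc4a1 at 0.07. In these 4 lists 0 passed in limma. An unadjusted p under 0.05 was found for 1 of the cardiomyocyte, 1 of the smooth muscle, 0 of the macrophage and 0 of the erythrocyte markers (against 10.7% of all probe sets). RMA values do not reach 0, so absence of a marker cannot be read from the table. The part of these cell types in the Ncam1 value was not tested.

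**Figure D4:**
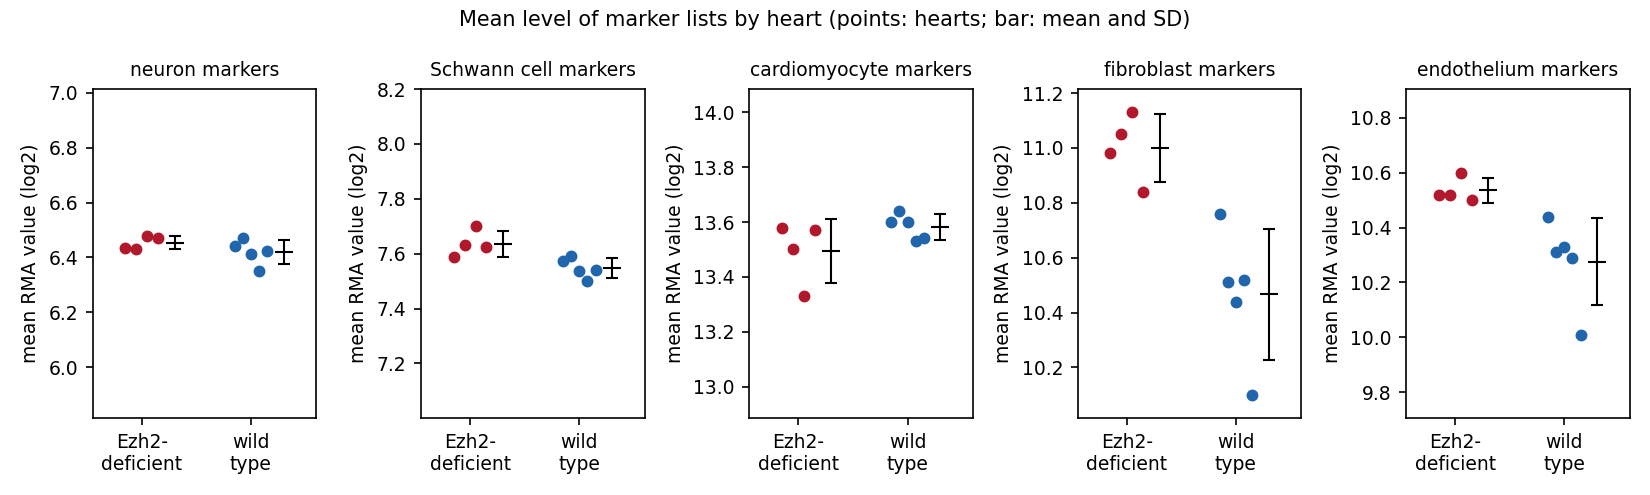
Mean RMA value (log2) of 5 marker lists in each heart, Ezh2-deficient left of wild type, with mean and SD over hearts. The groups overlap for neuron and cardiomyocyte markers and do not overlap for fibroblast and endothelial markers. For Schwann cell markers they overlap narrowly, the lowest Ezh2-deficient heart at 7.588 and the highest wild-type heart at 7.592.

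The genes whose values over the 9 arrays were most like those of Ncam1 were sought among 2270 other genes with an SD of at least 0.2. The highest Pearson r were those of Pdlim7, a LIM domain protein of the cytoskeleton (0.972), Fxyd6, a regulator of the sodium pump (0.967), the proteoglycan gene Bgn (0.962), the growth factor gene Tgfb3 (0.962) and the collagen crosslinking enzyme gene Lox (0.961). With the group means removed, r was 0.874 for Pdlim7, 0.764 for Fxyd6, 0.766 for Bgn, 0.702 for Tgfb3 and 0.863 for Lox. Ncam1 varied little among Ezh2-deficient hearts (SD 0.032, against 0.17 in wild-type hearts). The r with group means removed thus rest mostly on the wild-type arrays. The r before that step are the highest of 2270 values over 9 arrays that share the genotype groups. All r are given as a description. Of the 5, Tgfb3 passed in limma (difference 0.58, SE 0.07, adjusted p = 0.0407) and the others did not, with differences of 0.36 for Pdlim7, 0.56 for Fxyd6, 0.78 for Bgn and 0.53 for Lox.

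The Ncam1 difference ran from 0.44 to 0.67 over 20 other settings. It ran from 0.53 to 0.63 with any 1 array omitted, with adjusted p from 0.0417 to 0.202. Over all 20 settings the adjusted p ran from 0.0387 to 0.651. Ncam1 passed in limma without wild-type array 1 (adjusted p = 0.0417), with array weights (0.0387) and with dim probe sets left out, those with a mean below the 95th percentile of the olfactory receptor genes (0.0403).

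**Figure D5:**
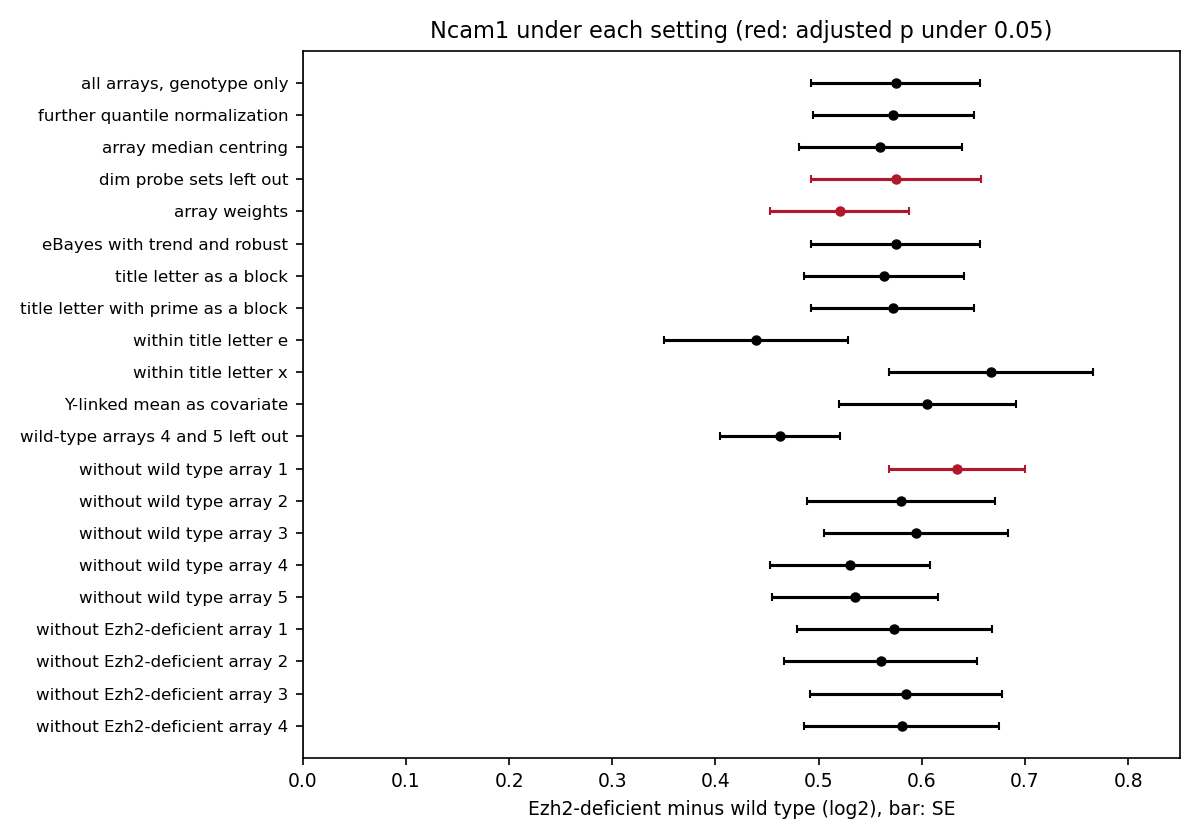
Ncam1 difference (Ezh2-deficient minus wild type, log2) with its SE under the reported fit and 20 other settings, in red where the adjusted p was under 0.05. All points lie between 0.44 and 0.67, and 3 settings are red.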

How the data were processed

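The authors deposited 1 log2 expression value per probe set and array, and the submitters' processing notes name Affymetrix Power Tools and RMA; no version is given in the sources used here. RMA by median polish can give equal values on several arrays. The log2 scale was read from the range (2.18 to 15.0) and the method. The table held 28815 probe sets, 9 arrays and 0 other per-sample columns; array medians ran from 7.19 to 7.25. The number of arrays limits the precision. Of the probe sets, 21780 had 1 gene symbol in the platform annotation, 1605 several and 5430 none; 21689 were matched to RefSeq by gene identifier. A gene with several probe sets was read at that of highest mean; each of the 7 genes had 1 probe set.

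Groups came from the description label. Samples were treated as separate animals, as the labels speak of mice; replicate numbers follow sample order and pair nothing. Gene lists were also read without arrays that lay apart, an alternative chosen after seeing the data. The test was limma (R 4.3.3, limma 3.58.1), lmFit and eBayes on genotype alone; p-values are two-sided and were adjusted (Benjamini-Hochberg) across all 28815 probe sets, with 0.05 as threshold; the fit was tested on simulated data. Genes named were the 7, the 3 smallest p (or every call) of the 2 related lists, both polysialyltransferases, the 2 smallest p of each marker list, the 5 genes most like Ncam1, and Ezh2. From the fibroblast list Dcn, Pdgfra and Col1a1 were also named, to show its range. The members, lists and tests were chosen with earlier results of these data known. Listed names absent from the table were looked up among RefSeq synonyms (Kirrel1 as Kirrel).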

Additional observations from a re-analysis of the deposited data

Results flagged for a closer look

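In 3 of the 14 groups of values examined (7 genes in 2 groups), 1 array stood apart from the rest of its group by Dixon's ratio of gap to range, which chance does in about 1 group in 20 where values are not tied. Nrcam read 5.70 in wild-type array 5 and the same value, 5.83, in the other 4 wild-type arrays. Cntn1 read 5.39 in Ezh2-deficient array 4, where the nearest array read 5.45, and 5.56 in wild-type array 2, where the nearest read 5.45. Both genes have many tied values, and the gaps are 0.06 to 0.13 on the log2 scale.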

How the results depend on the processing

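Over 20 alternatives for Ncam1 and 19 for Chl1 the direction did not change; for Ncam1, whose groups do not overlap, that is no sign of stability. Ncam1 passed with dim probe sets left out (0.57), array weights (0.52) and without wild-type array 1; leaving out 1 array gave 0.53 to 0.63. The near-zero differences changed sign without passing. Ncam2 was -0.011 with array median centring, -0.0027 with array weights, -0.0022 with the title letter as a block, -0.077 within letter e, -0.045 without wild-type arrays 4 and 5, and -0.0515 to 0.043 without 1 array. Nrcam was -0.016 within letter e, -0.0015 without wild-type arrays 4 and 5, and -0.0015 to 0.034 without 1 array. Nfasc was 0.001 within letter x and -0.0315 to 0.0065 without 1 array. L1cam was -0.0265 within letter e and -0.019 without wild-type arrays 4 and 5. Cntn1 was 0.012 within letter x. Of all probe sets 10 passed; 17 did with array median centring, 19 with dim probe sets left out, 37 with array weights, 17 with the title letter as a block, 27 with letter and prime as a block, 0 within letter e or x (limma on fewer samples, with 2183 and 3132 at an unadjusted p under 0.05), 3 with the Y-linked covariate, 5 without wild-type arrays 4 and 5, and 3 to 15 without 1 array (3 each without Ezh2-deficient array 1, Ezh2-deficient array 2 and wild-type array 4; 4 without wild-type array 3, 5 without wild-type array 2). The cause of these shifts was not tested. A second probe set of a gene could not be tried, since each has 1, and Ncam2, Nrcam, Chl1 and Cntn1 are themselves among the dim probe sets. No paired analysis was possible because no title number with its letter mark (such as e4) occurs in both groups.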
